A study of Mus musculus with 28 samples.

Results

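The engulfment genes described here are 10 of the 43280 gene rows in the count tables, listed by symbol: the secreted bridging proteins Gas6, Pros1 and Mfge8, the receptor tyrosine kinases Tyro3, Axl and Mertk, the integrin subunits Itgav and Itgb5, and the cytoplasmic partners Elmo1 and Dock1. The study asks, by its title, how germ cells shape the state of Sertoli cells, the somatic cells that line the seminiferous tubule. Whole testes of NANOS2 KO mice on a CD1 background were sampled on each of 9 days, 42 to 50 days after injection of retinoic acid (RA), with 2 libraries a day (18 libraries). NANOS2 is an RNA-binding protein that male germ cells need, and the labels call these testes germ cell-deficient; they also give the cell type as Sertoli, although interstitial cells of the testis remain in such tissue. Red fluorescent Sertoli cells were sorted from testes of RFP heterozygote, Amh-Cre-positive mice in 5 groups of 2 libraries (10 libraries): group A was enriched for stages XI-XII of the seminiferous epithelial cycle, group B for stages I-III, group C for stages IV-VI, group D for stages VII-VIII and group E for stages IX-X. Amh-Cre uses the promoter of anti-Müllerian hormone, which is active in Sertoli cells. The strain of the sorted mice is given as C57BL/6 x 129s4/SvJae, except for group A replicate 1, labelled as derived from C57BL/6 x Amh-Cre. All mice, sorted and knockout alike, had received WIN 18,446, an inhibitor of RA synthesis, for 7 days, followed by RA the next day, which synchronises spermatogenesis. For the sorted cells too the window was 42 to 50 days after RA, without a day for each library. No untreated testis, no sorted cells from the knockout and no whole testis with germ cells was analysed here.

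Most germ cells that die in the testis, and the residual bodies that spermatids shed as they are released at the end of stage VIII, are taken up by Sertoli cells. A dying cell turns phosphatidylserine to its outer surface. GAS6 and protein S (Pros1) bind this lipid at one end and the TAM receptors (Tyro3, Axl, Mertk) at the other; MFGE8 binds it and the integrins alpha-v beta-3 and alpha-v beta-5. ELMO1 and DOCK1 together activate the GTPase RAC1, which rebuilds actin around the particle. Mice that lack all TAM receptors lose their germ cells, and in mice Elmo1 is needed for clearance of dying germ cells by Sertoli cells.

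Total counts per library ran from 1336742 to 4370138 in the NANOS2 KO testes and from 1901743 to 5279746 in the sorted cells, so that 3 counts correspond to 0.686 to 2.24 CPM (the count scaled to the library total) in the knockout and 0.568 to 1.58 CPM in the sorted cells. All 10 genes passed the filter on low counts in every fit, and their lowest count in any library was 33 (Itgav). The library labelled KO day 49 replicate 1 stood apart: it was the highest of the 18 knockout libraries for Axl, Tyro3, Mfge8 and Itgb5, the lowest for Elmo1, and had the highest summed level of 5 stromal markers, 2145 CPM. In groups A, B and D replicate 1 had more Pros1, Mertk, Dock1 and Itgav than replicate 2, as it had in group E for the first 3 of these; in group C it had less of Pros1, Mertk and Dock1. The labels do not say that the libraries of a group came from separate animals, so p-values measure only the spread between these libraries, which may be technical. The 12 Sertoli markers summed to 12950 to 15110 CPM in the NANOS2 KO testes and to 6570 to 11000 CPM in the sorted cells. Clu made up most of this sum, with medians of 10660 CPM in the knockout and 4698 CPM in the sorted cells. By median, Aard (770.5 against 1517 CPM), Rhox5 (77.35 against 158.2 CPM) and Dhh (148.3 against 151 CPM) were lower in the knockout, and the other markers were higher. Scaling by Sertoli markers, used below, rests on this sum and so follows Clu most. Germ cell RNA was present in the sorted cells: 6 elongating spermatid markers summed to 0 to 2.97 CPM in the NANOS2 KO testes and to 1395 to 12620 CPM in the sorted cells.

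Of the 10 genes 3 changed with the stage of the cycle. At stages VII-VIII Gas6 and Elmo1 were lower and Mfge8 was higher than at the other stages, and the other 7 genes did not pass the test. Gas6 and Mfge8, both secreted bridging proteins, moved in opposite directions, and no receptor or integrin subunit was called. Across the 5 sorted groups an F test (edgeR's quasi-likelihood test, Benjamini-Hochberg adjusted over 14331 genes, threshold 0.05) called 3 of 10 members, against 8.09% of all genes tested: Gas6 (adjusted p = 0.000619), Elmo1 (0.0140) and Mfge8 (0.0158). Without one or the other library of group D the adjusted p was 0.0884 and 0.116 for Elmo1 and 0.0839 and 0.0855 for Mfge8, and Gas6 passed without each of the 10 libraries in turn. Group D against the mean of the other 4 groups also called 3 of 10, with 1 higher and 2 lower, against 8.62% of all genes. The median log2 fold change of the 10 members in that comparison was -0.29, beside 0.04 for all genes.

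**Figure D1:**
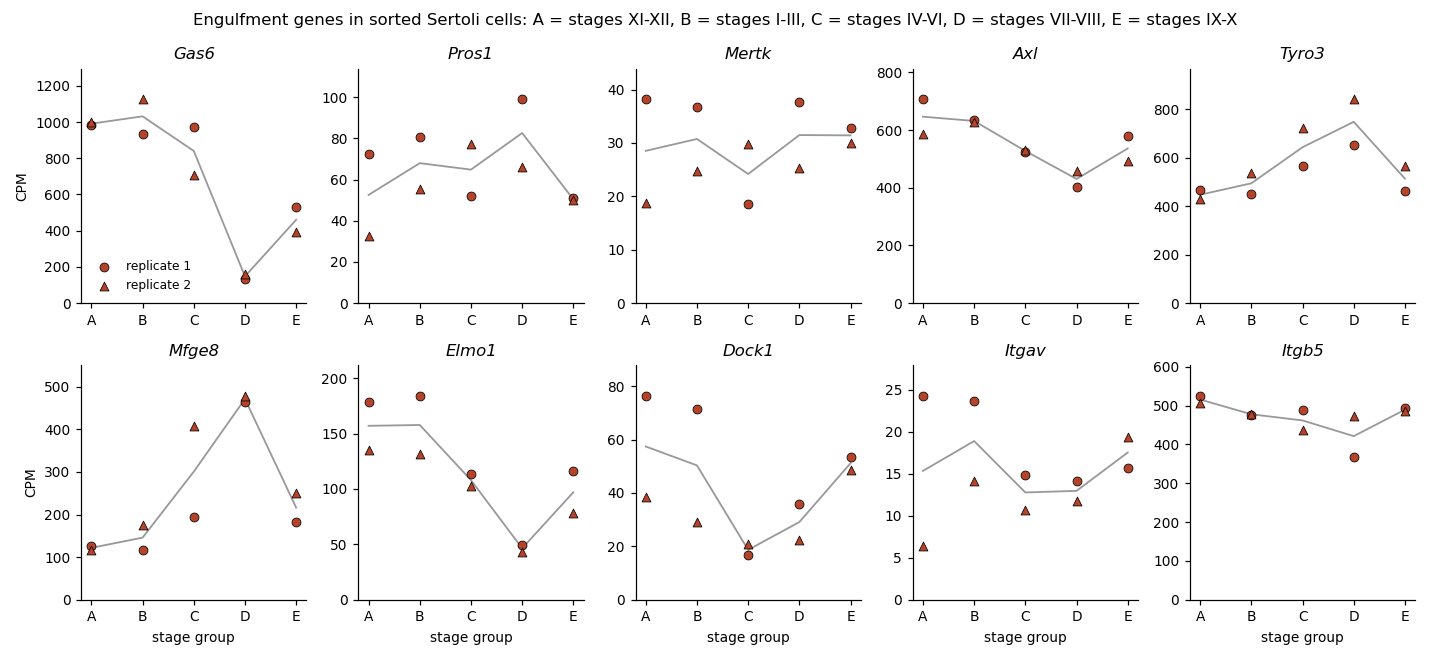
CPM of the 10 engulfment genes (y axis, from 0, each panel on its own scale) in the 5 sorted stage groups (x axis); each point is 1 library and the grey line joins the group means. Gas6 is at 134 and 161 CPM in group D and at 392 CPM or more in every other library, and Mfge8 is highest in the libraries of group D.

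Gas6 encodes the TAM ligand that binds Axl with the highest affinity (chr8:13465374-13494490, minus strand, GRCm38, protein coding). It was at 982 and 1001 CPM in group A, 937 and 1127 CPM in group B, 973 and 709 CPM in group C, 134 and 161 CPM in group D, and 529 and 392 CPM in group E. Both group D libraries were below all others, and both group E libraries were below those of groups A, B and C. The order of group means was B, A, C, E, D, and neighbours in it did not overlap in their libraries except A and B. In group D the fitted level was 0.181 of that in the other groups (log2 -2.46, SE 0.26, adjusted p = 0.000312). From group C to group D Gas6 fell by 2.52 on the log2 scale (SE 0.29, adjusted p = 0.00217) and from group D to group E it rose by 1.66 (SE 0.28, adjusted p = 0.00684). By edgeR it was the only member called in either step, where 0.628% of all genes were called between groups C and D and 3.56% between groups D and E; DESeq2 called 2 and 3 members in these steps. These steps share the libraries of group D with the comparison above, and leaving out either of them raised the adjusted p to 0.111 or 0.0854 for the first step and to 0.0889 or 0.0512 for the second; without group E replicate 1 the second gave 0.111. The fall in group D itself held without each library in turn (log2 -2.58 to -2.35, highest adjusted p 0.0137). Exons of Gas6 share 34 bases with Tmem255b on the other strand, and the strand setting of the counting is not given in the sources used here.

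In group A Gas6 was 2.09 times the mean of the other groups (log2 1.06, SE 0.20, adjusted p = 0.0184), the only member called there by edgeR, against 1.67% of all genes; DESeq2 called 3, with Mfge8 at 0.0229 and Elmo1 at 0.0482 beside it. That call was lost without group A replicate 1 (adjusted p = 0.0636), group A replicate 2 (0.0768) or group E replicate 2 (0.0508). Group B gave a similar fold of 2.14 (log2 1.10, SE 0.20) with an adjusted p of 0.0704, in a comparison that called 0.0419% of all genes; DESeq2 put Gas6 past the threshold there at 0.00202. At the main settings (with the filter and TMM) edgeR called no member in group B, where 3 had p under 0.05 before adjustment. None was called that way in group C (2.66% of all genes called), with 2 such members and Dock1 called by DESeq2, or in group E (0.523% called), with 0 such members and 0 by DESeq2. Without the filter Gas6 passed in group B (adjusted p = 0.000115) and in group C (0.0397).

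Mfge8 encodes a secreted glycoprotein also known as lactadherin (chr7:79133768-79149060, minus strand, GRCm38, protein coding). It was at 126 and 117 CPM in group A, 116 and 176 CPM in group B, 195 and 407 CPM in group C, 464 and 479 CPM in group D, and 182 and 250 CPM in group E. The group D libraries were the highest of the 10, with group C replicate 2 next to them, and the order of group means was D, C, E, B, A. Mfge8 in group D was 2.49 times its level in the other groups (log2 1.32, SE 0.25, adjusted p = 0.00584). Without group D replicate 1 or 2 the fold stayed at log2 1.33 and 1.32 and the adjusted p went to 0.0721 and 0.0684. From group D to group E the log2 difference was -1.12 (SE 0.35, adjusted p = 0.101), with DESeq2 at 0.0481.

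Elmo1 (chr13:20090596-20608353, plus strand, GRCm38, protein coding) was at 179 and 135 CPM in group A, 184 and 131 CPM in group B, 114 and 102 CPM in group C, 49.5 and 43.4 CPM in group D, and 116 and 77.9 CPM in group E. Its group means had the same order as those of Gas6, B, A, C, E, D, with overlap of libraries between B and A and between C and E. The group D libraries lay below all 8 others. The level in group D was 0.357 of that in the other groups (log2 -1.49, SE 0.27, adjusted p = 0.00409). Without group D replicate 1 or 2 the log2 difference was -1.59 and -1.37 and the adjusted p 0.0584 and 0.0875. The steps on either side of group D had log2 differences of -1.23 (SE 0.31, adjusted p = 0.115) and 1.09 (SE 0.31, adjusted p = 0.0732), and DESeq2 gave adjusted p-values of 0.0210 and 0.0290. Exons of Elmo1 share 403 bases with the antisense gene Gm32036. Without the strand setting it is not known whether reads of that stretch were kept apart.

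**Figure D2:**
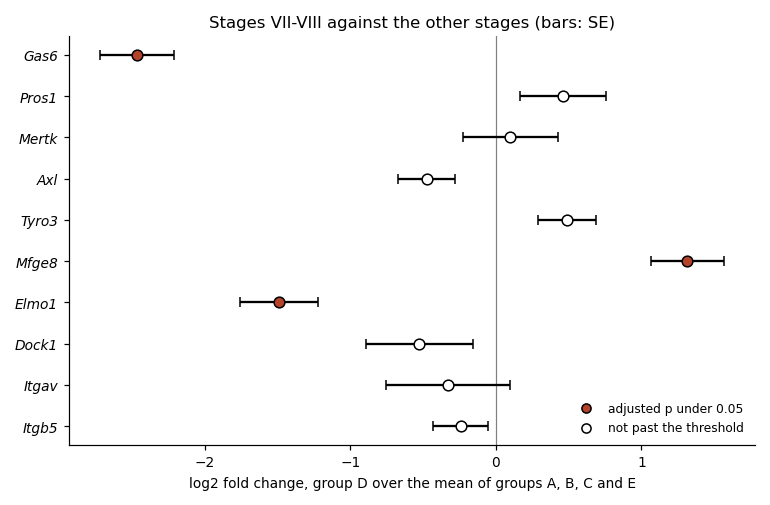
Log2 fold change of each gene in group D over the mean of groups A, B, C and E (x axis), with bars of 1 SE; filled points passed an adjusted p of 0.05. Gas6 (-2.46) and Elmo1 (-1.49) lie left of 0 and Mfge8 (1.32) right of it; the 7 open points lie between -0.53 and 0.49.

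The elongating spermatid markers moved with Gas6 and Elmo1. Their sum was 1395 to 2303 CPM in group D and 6122 to 12620 CPM in the other sorted libraries, and 5 of the 6 (Akap4, Prm1, Prm2, Tnp1, Tnp2) fell in group D. The macrophage list also summed lower in group D, 148 to 160 CPM against 218 to 402 CPM; 7 of its 10 genes had a median under 1 CPM in the sorted cells, and over these 10 libraries Mrc1 had 4784 counts, Aif1 6367, and each of the other 8 genes 5 to 39. The peritubular myoid list summed to 82.6 to 128 CPM in group D and 179 to 344 CPM elsewhere, the Leydig list to 35.4 to 50.2 CPM against 13.98 to 36.9 CPM, the endothelial list to 26.4 to 29.0 CPM against 4.58 to 29.3 CPM, and the Sertoli list to 10280 to 10400 CPM against 6570 to 11000 CPM. Of the genes of these lists that were tested, 1 of 2 macrophage genes (Aif1) and 1 of 5 myoid genes (Actg2) fell in group D. In the same comparison 2 of 4 Leydig, 2 of 4 endothelial and 1 of 12 Sertoli genes (Rhox5) rose. Over the 10 sorted libraries Actg2 had 6214 counts, Acta2 1204, Myh11 551 and the other myoid genes 71 to 181. Group D means of Acta2 and Myh11 were 28.3 and 11.22 CPM, beside medians of 31.05 and 11.65 CPM over all sorted libraries. The spermatocyte list summed to 415 to 553 CPM in group D and 141 to 628 CPM elsewhere, and the round spermatid list to 199 to 333 CPM and 130 to 311 CPM; of the spermatocyte genes Piwil1 and Tex101 rose and Ccna1 fell in group D, and of the round spermatid genes Catsper3 and Izumo1 rose. The part of these markers in the changes of Gas6, Elmo1 and Mfge8 was not tested. Where the elongating spermatid markers were at or near 0, in the NANOS2 KO testes, Gas6 was at 373 to 681 CPM and Elmo1 at 86.8 to 267 CPM. Those whole testes also hold interstitial cells and differ in strain, and which cells gave these counts was not tested. In these bulk samples fewer cells of a type and less RNA per cell cannot be told apart. When the sorted libraries were scaled by their Sertoli markers, a choice made after seeing the data that moved the median of all genes in group D to -0.33 and its calls to 346 higher and 933 lower (625 and 611 with TMM), the log2 differences of group D were -2.85 for Gas6 (adjusted p = 0.000151), -1.86 for Elmo1 (0.00358) and 0.99 for Mfge8 (0.0245).

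The 5 genes whose log2 CPM was most like that of Gas6 over the 10 sorted libraries, of 7820 genes compared (mean log2 CPM of 4 or more), were Alas2 (Pearson r 0.984), Espn (0.983), Akap4 (0.982), Tmed1 (0.980) and Rfx3 (0.977). These libraries share 5 groups and their depth with one another, so r is a description. Espn, an actin-bundling protein of the junctions between Sertoli cells and spermatids, averaged 1610, 1816, 1268, 425 and 1087 CPM in groups A to E and had a median of 976 CPM in the knockout. Akap4, a protein of the sperm tail, averaged 1162, 1123, 904, 187 and 722 CPM and had a median of 0 CPM there. Alas2, the closest match, averaged 524, 741, 573, 34.9 and 159 CPM in groups A to E and had a knockout median of 17.3 CPM. Tmed1 averaged 36.8 to 72.5 CPM by group and Rfx3 9.27 to 25.6 CPM, with knockout medians of 59.3 and 11.95 CPM. The list thus holds both a gene with a high level in the germ cell-deficient testes and one with a median of 0 in them.

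Gas6, Mfge8 and Elmo1 are shown by the stretch around their annotated starts, because they are the members that moved with stage. The sequences run from 250 bases before to 50 bases after the RefSeq start (GRCm38.p6), 5′ to 3′ on the gene's strand, and capitals mark the GC box, GGGCGG or its reverse complement CCGCCC. The windows are chr8:13494486-13494785 (Gas6, minus strand), chr7:79149011-79149310 (Mfge8, minus strand) and chr13:20090257-20090556 (Elmo1, plus strand).
Gas6: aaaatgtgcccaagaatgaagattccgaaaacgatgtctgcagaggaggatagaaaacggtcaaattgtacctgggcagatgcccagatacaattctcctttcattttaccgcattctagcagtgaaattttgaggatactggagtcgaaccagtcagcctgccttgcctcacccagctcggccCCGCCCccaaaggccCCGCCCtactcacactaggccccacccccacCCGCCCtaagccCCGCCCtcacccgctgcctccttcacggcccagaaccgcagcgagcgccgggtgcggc
Mfge8: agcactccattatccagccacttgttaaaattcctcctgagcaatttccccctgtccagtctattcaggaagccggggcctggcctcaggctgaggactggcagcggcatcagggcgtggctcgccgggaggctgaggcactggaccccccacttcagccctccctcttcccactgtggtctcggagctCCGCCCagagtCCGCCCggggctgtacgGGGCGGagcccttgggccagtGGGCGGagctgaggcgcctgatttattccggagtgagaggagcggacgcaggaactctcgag
Elmo1: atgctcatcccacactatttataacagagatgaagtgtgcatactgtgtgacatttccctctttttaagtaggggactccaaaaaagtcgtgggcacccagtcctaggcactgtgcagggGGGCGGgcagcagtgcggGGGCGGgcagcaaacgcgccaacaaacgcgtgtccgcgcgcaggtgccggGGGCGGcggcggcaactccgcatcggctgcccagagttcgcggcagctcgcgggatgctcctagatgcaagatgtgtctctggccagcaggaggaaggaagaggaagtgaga
Gas6 and Mfge8 have 4 GC boxes each and this start of Elmo1 has 3; a second annotated start of Elmo1 has 0. All 10 members matched the RefSeq table, with 11 windows in all, and 10 of these hold a GC box, as do 35.7% of the 32851 windows of that length. The half-site AGGTCA of many nuclear receptors, searched also as TGACCT, is in none of the 11, against 16.3% of all windows. The androgen receptor half-site AGAACA, searched on both strands, is in the window of Tyro3 only, and in 6233 of the 32851. A match is a string of letters in this window, not a bound site.

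The TAM receptors did not pass the test in any stage comparison. Axl (chr7:25757273-25788705, minus strand) was at 707 and 585 CPM in group A, 636 and 627 CPM in group B, 525 and 530 CPM in group C, 404 and 457 CPM in group D, and 579 and 493 CPM in group E. Both group D libraries were below the other 8, and the log2 difference of group D from the others was -0.48 (SE 0.20, adjusted p = 0.169). Tyro3 (chr2:119797733-119818104, plus strand) was at 466 and 429 CPM in group A, 451 and 539 CPM in group B, 565 and 722 CPM in group C, 655 and 842 CPM in group D, and 461 and 566 CPM in group E. Groups C and D overlapped, and the log2 difference of group D was 0.49 (SE 0.20, adjusted p = 0.154). Mertk (chr2:128698956-128802894, plus strand), the TAM receptor best known from macrophages and the retinal pigment epithelium, was at 18.5 to 38.2 CPM in all sorted libraries with no separation of groups.

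Per length of transcript, the shares of the TAM receptors are only described here, as no TAM receptor passed a stage comparison. The RPKM (CPM divided by the exon length in kilobases) of Tyro3, Axl and Mertk summed to 190 to 233 in the sorted libraries. Tyro3 made up 33.5% and 36.5% of that sum in group A, 35.0% to 40.0% in group B, 45.6% to 51.0% in group C, 54.3% to 58.5% in group D and 37.8% to 46.5% in group E. Tyro3 was above Axl per length in both group D libraries and in group C replicate 2, and in group A Axl held 61.3% to 62.6%. Mertk made up 2.13% to 4.46% in every sorted library. On the ligand side, Gas6 and Pros1 summed to 76.8 to 79.4 RPKM in group D, against 401 to 403 RPKM in group A. Gas6 was 68.5% to 79.6% of that sum in group D and 92.7% to 98.0% in the other sorted libraries. The ratio of Gas6 to Mfge8 per length was 14.3 to 15.7 in group A, 11.8 to 14.9 in group B, 3.21 to 9.20 in group C, 0.532 to 0.620 in group D and 2.88 to 5.35 in group E, so that of the sorted groups Mfge8 exceeded Gas6 in group D alone. In the NANOS2 KO testes the receptors summed to 281 to 434 RPKM and the ratio of Gas6 to Mfge8 was 3.60 to 7.20. These shares and ratios are given with no test.

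**Figure D3:**
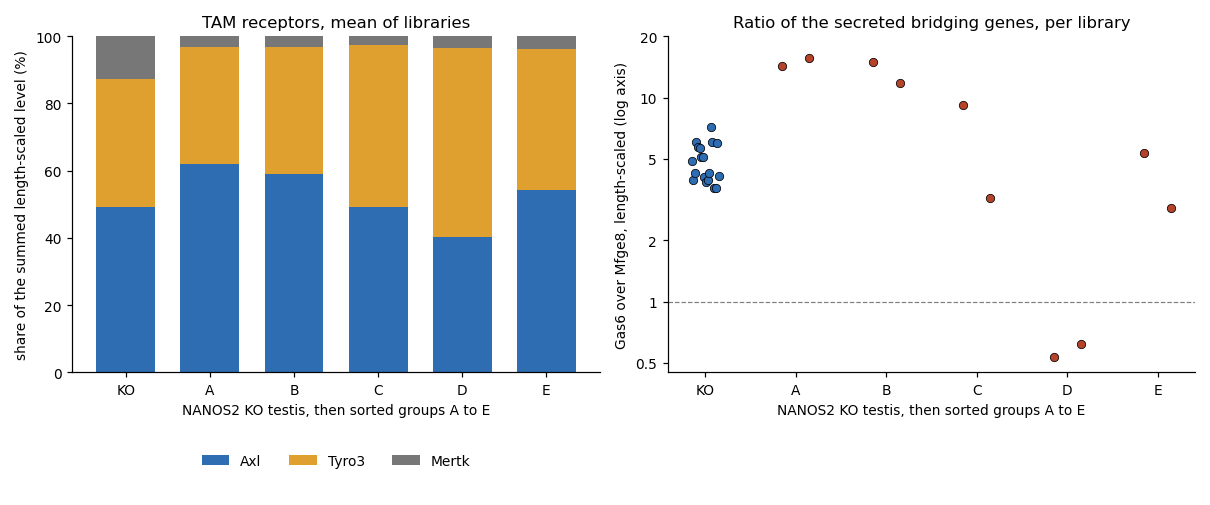
Left, share of Axl, Tyro3 and Mertk in their summed RPKM (y axis, percent), mean of libraries; right, ratio of Gas6 to Mfge8 RPKM on a log axis, 1 point per library, with a dashed line at 1. NANOS2 KO testis stands left of sorted groups A to E; Tyro3 has its largest share, and the ratio its only values under 1, in group D.

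Pros1, Dock1 and the integrin subunits were not called in any stage comparison by edgeR at the main settings. Pros1, protein S of the clotting system (chr16:62854307-62929346, plus strand), was at 99.0 and 66.1 CPM in group D and 32.6 to 80.5 CPM in the other sorted libraries (log2 0.46, SE 0.30, adjusted p = 0.400). Dock1 (chr7:134670654-135173639, plus strand) was at 76.4 and 38.4 CPM in group A, 71.5 and 29.2 CPM in group B, 16.7 and 20.7 CPM in group C, 35.7 and 22.5 CPM in group D, and 53.6 and 48.7 CPM in group E. The group C libraries were the lowest, with a log2 difference from the other groups of -1.28 (SE 0.39, adjusted p = 0.115), while Elmo1, its partner, was at 114 and 102 CPM there. Dock1 passed the F test over stages with DESeq2 (adjusted p = 0.0200) and with edgeR without the filter (0.000678). With edgeR at the main settings it did not (0.123). In group C it passed with edgeR without the filter (adjusted p = 0.00506). Itgav (chr2:83724397-83806916, plus strand), the alpha-v subunit, was at 6.41 to 24.3 CPM in the sorted libraries, and its exons share 634 bases with Gm13684 on the other strand. Itgb5 (chr16:33829665-33949338, plus strand), the beta-5 subunit, was at 369 to 525 CPM, with a coefficient of variation of 9.15% over the 10 libraries, the smallest of the 10 members. Per length Itgb5 was 60.8 to 239 times Itgav in the sorted cells.

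Other genes of engulfment gave no call over the stages or in group D by edgeR at the main settings. Of all genes tested, 8.09% and 8.62% were called in these comparisons, and the lists were not tested against those shares. No gene passed the F test or the comparison of group D with the other groups, by edgeR, among 10 tested of 26 other uptake receptors and bridging proteins, 18 of 21 signalling genes, 6 of 7 genes of TAM ligand maturation and receptor control, 5 of 9 genes of phosphatidylserine exposure and do-not-eat-me signals, or 18 of 18 phagosome maturation genes. In that order, the numbers with p under 0.05 before adjustment were 3, 1, 0, 1 and 2 in the F test and 3, 1, 0, 0 and 2 for group D, and DESeq2 called 0, 0, 0, 1 and 0 in the F test and 1, 0, 0, 0 and 1 for group D. Calr, a chaperone that also serves as an eat-me signal, had a log2 difference of 0.43 in group D (SE 0.18, adjusted p = 0.162). The lysosomal protease Ctsl had 0.76 (SE 0.23, adjusted p = 0.0592), and the scramblase Ano6 -0.62 (SE 0.34, adjusted p = 0.317). Ano6 differed more from the other groups in group C (log2 -1.27, SE 0.36, adjusted p = 0.0942) and group E (0.95, SE 0.30, 0.201). In the F test over stages its adjusted p was 0.0611. It passed that test with DESeq2, without the filter, with the replicate block and with Sertoli marker scaling.

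In the NANOS2 KO testes none of the 10 genes passed the edgeR test over days 42 to 50 at the main settings. An F test over the 9 days called 0 of 10 members by edgeR, against 0.582% of 13065 genes, while 1 had p under 0.05 before adjustment and DESeq2 called 1. A straight line over days called 0, against 0.857% of all genes, and a fit of 1 cycle of 8.6 days called 0, against 0.0% of all genes. In each of these fits 1 member had p under 0.05 before adjustment, and DESeq2 called 0. The lowest adjusted p over days was that of Itgb5 (0.197), for which DESeq2 gave 0.0497 and edgeR without the filter 3.36e-05. The highest over the lowest group mean was 1.47 for Gas6 over the 9 knockout days and 7.00 over the 5 stage groups. For Mfge8 these ratios were 1.37 and 3.87, for Elmo1 1.68 and 3.40, and for Dock1 1.37 and 3.07. They were 1.219 and 1.639 for Pros1, 1.13 and 1.302 for Mertk, 1.285 and 1.502 for Axl, and 1.371 and 1.673 for Tyro3. Itgav had 1.502 and 1.478 and Itgb5 1.637 and 1.224, both larger over the knockout days. Day 49, which holds the library that stood apart, had the highest knockout mean of Itgb5, Tyro3 and Mfge8 and the lowest of Elmo1. These ratios set the extremes of 9 days beside those of 5 stage groups.

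The knockout values, as lowest, median and highest of 18 libraries, were 373, 508 and 681 CPM for Gas6, 163, 195 and 221 CPM for Pros1, and 160, 199 and 246 CPM for Mfge8. Axl had 691, 818 and 1065 CPM, Tyro3 646, 780 and 1149 CPM, and Mertk 161, 181 and 204 CPM. Elmo1 had 86.8, 191 and 267 CPM, Dock1 70.0, 93.7 and 114 CPM, Itgav 47.7, 72.6 and 102 CPM, and Itgb5 162, 202 and 355 CPM. The coefficient of variation of Mertk over these libraries was 6.59%. Without KO day 49 replicate 1 the line of Itgb5 over days was -0.06 log2 a day (adjusted p = 0.0339), against -0.02 (0.677) with it. Dock1 had -0.05 log2 a day (SE 0.02, adjusted p = 0.130), and -0.06 (0.0492) without KO day 50 replicate 2. Without KO day 49 replicate 2, where day 49 rests on the library that stood apart, Itgb5 (adjusted p = 0.000451), Elmo1 (0.00484) and Tyro3 (0.0121) passed the F test over days.

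**Figure D4:**
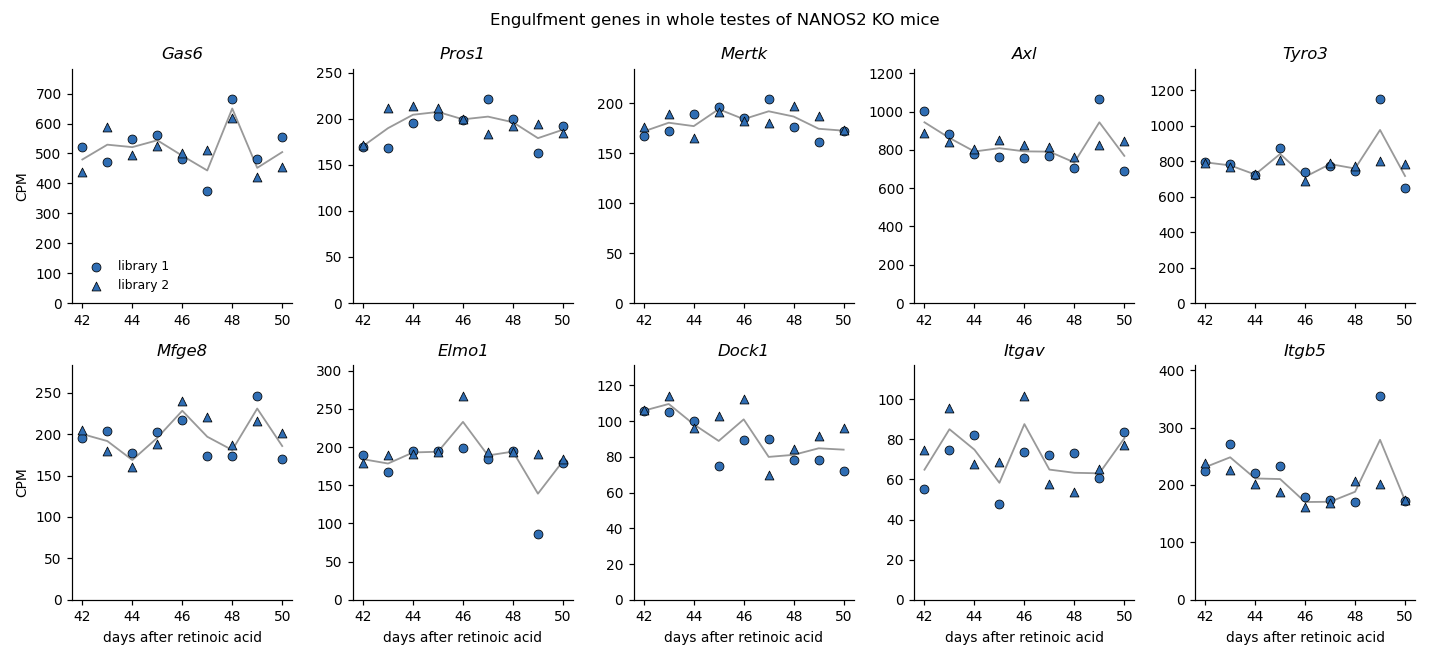
CPM of the 10 engulfment genes (y axis, from 0, each panel on its own scale) in whole testes of NANOS2 KO mice against days after RA (x axis, 42 to 50); each point is 1 library and the grey line joins the daily means. No gene passed the edgeR test over days at the main settings. The library with 1149 CPM of Tyro3 on day 49 is also the highest for Axl and Itgb5.

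NANOS2 KO testes and sorted cells differed in most of these genes, as in most genes measured. In 1 fit of all 28 libraries, knockout against the mean of the sorted groups called 9 of 10 members, 6 higher and 3 lower, against 85.1% of 15777 genes; against group D it called 9, 7 higher and 2 lower, where 72.4% of all genes were called. Both comparisons use the same knockout libraries and group D. Germ cell loss, strain, and whole testis as opposed to sorted cells cannot be told apart here. The median log2 difference of all genes was -0.17 against the sorted groups with TMM scaling, -0.11 with RLE scaling and -0.53 when libraries were scaled by the Sertoli markers; against group D it was -0.23, -0.12 and -0.30. Calls against the sorted groups were 6003 higher and 7416 lower with TMM, and 4619 and 8762 with Sertoli marker scaling. The mitochondrial share of counts was 0.715% to 3.24% in the KO testes, with the lowest in KO day 49 replicate 1, and 4.61% to 12.5% in the sorted cells, and its part in these differences was not tested. CPM are per total count, while the fitted differences use TMM factors of the joint fit.

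Mertk was 161 to 204 CPM in the NANOS2 KO testes and 18.5 to 38.2 CPM in the sorted cells, with no overlap (log2 2.26, SE 0.11, adjusted p = 9.06e-16). Its share of TAM receptor RPKM was 8.57% to 14.5% in the knockout and at most 4.46% in the sorted cells. Itgav, at 47.7 to 102 CPM in the knockout and 6.41 to 24.3 CPM in the sorted cells, rose by 1.84 (log2), and Pros1, at 163 to 221 CPM and 32.6 to 99.0 CPM, rose by 1.24. Dock1 rose by 0.90 and Elmo1 by 0.46 on the log2 scale, the Elmo1 call being lost with Sertoli marker scaling (log2 0.09, adjusted p = 0.490). Axl rose by 0.20 (adjusted p = 0.00737) and Tyro3 differed by 0.10 (adjusted p = 0.198), and with Sertoli marker scaling both signs turned, to -0.16 (0.101) and -0.25 (0.00608). Itgb5 fell by 1.58, at 162 to 355 CPM in the knockout and 369 to 525 CPM in the sorted cells, and Itgb5 per length was 4.80 to 17.7 times Itgav in the knockout.

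Gas6 in the knockout was lower than the mean of the sorted groups (log2 -0.54, SE 0.08, adjusted p = 9.64e-07) and higher than group D (log2 1.44, SE 0.18, adjusted p = 7.91e-08). Its knockout libraries overlapped those of group E in CPM. Mfge8 was lower against both, by log2 -0.56 (SE 0.10, adjusted p = 1.23e-05) and -1.61 (SE 0.16, adjusted p = 4.06e-09). Elmo1 was higher than in group D by log2 1.66 (SE 0.23, adjusted p = 5.66e-07). Tyro3 against group D had log2 -0.28 (SE 0.14, adjusted p = 0.0648), and 0.0286 without KO day 49 replicate 1. Against group D Mertk (log2 2.19), Itgav (2.11), Dock1 (1.33) and Axl (0.59) were also higher in the knockout and Itgb5 (-1.38) lower. Pros1 against group D (log2 0.88, adjusted p = 0.000672) gave 0.0640 without group D replicate 2.

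**Figure D5:**
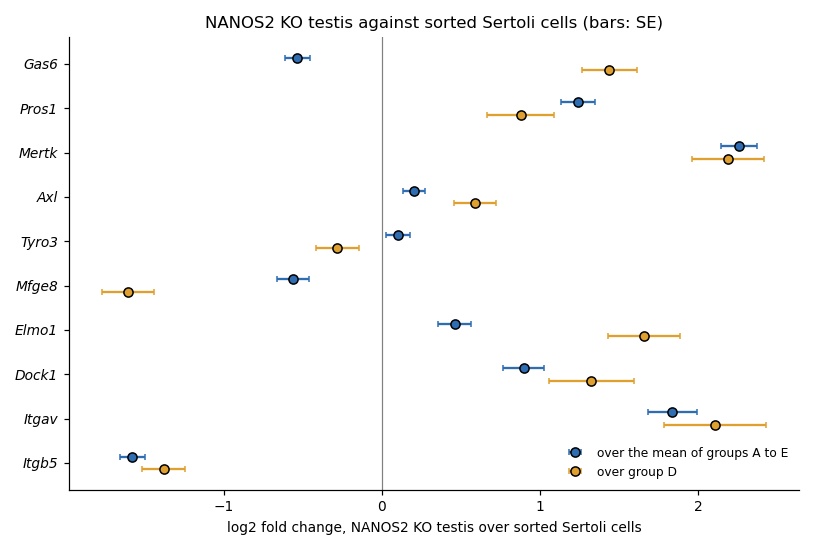
Log2 fold change of each gene in NANOS2 KO testis over the mean of sorted groups A to E (blue) and over group D (orange), with bars of 1 SE. Gas6 is left of 0 in blue (-0.54) and right of it in orange (1.44), Mertk lies past 2 in both, and the small blue values of Axl (0.20) and Tyro3 (0.10) turn negative with Sertoli marker scaling.

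The marker lists of macrophages, Leydig, stromal, myoid and endothelial cells summed higher in the NANOS2 KO testes, though not every gene in them was higher. The macrophage list summed to 568 to 811 CPM in the knockout and 148 to 402 CPM in the sorted cells, and Lyz2 was at 167 to 341 CPM against 0 to 1.05 CPM and Csf1r at 116 to 197 CPM against 0 to 2.24 CPM, while Aif1 of the same list was at 4.92 to 12.1 CPM against 48.0 to 249.8 CPM. The Leydig list summed to 1867 to 5670 CPM against 13.98 to 50.2 CPM, the stromal list to 1036 to 2145 CPM against 16.3 to 55.8 CPM, the myoid list to 564 to 789 CPM against 82.6 to 344 CPM, and the endothelial list to 72.2 to 155 CPM against 4.58 to 29.3 CPM. Actg2 of the myoid list ran the other way, at 5.04 to 13.6 CPM in KO testes against 41.3 to 293.7 CPM in sorted cells. Their part in the values of Mertk, Itgav, Pros1 and the other members was not tested.

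Most genes of the related lists were called between knockout and sorted cells, as were 85.1% of all genes, with a median log2 difference of all genes of -0.17. Of 19 uptake receptors and bridging proteins tested 14 rose and 4 fell, with a median log2 of 3.81. Stab1 and C1qa, both known from macrophages, were at 129 to 288 CPM and 64.5 to 108 CPM in the knockout and at 0 to 1.28 CPM and 0 to 1.22 CPM in the sorted cells. Tub fell by 5.23 and Calr by 0.57 on the log2 scale. Of 21 signalling genes 16 rose and 3 fell (median 1.18); the lipid exporter Abca1, induced after engulfment, rose by 3.93 and Dock5 by 1.89, while Src fell by 0.99 and Bcar1 by 0.61. Of 6 genes of TAM ligand maturation and receptor control 4 rose, among them the protease Adam10 (log2 1.73), which sheds cell surface receptors, and the vitamin K-dependent carboxylase Ggcx (1.46). Of 7 genes of phosphatidylserine exposure and do-not-eat-me signals 6 rose and 1 fell: Sirpa (log2 4.98) and its ligand Cd47 (4.20) rose, and the scramblase Xkr8 fell by 1.71. Of 18 phagosome maturation genes 5 rose and 10 fell (median -0.30); Lamp2 rose by 2.14 and Ctsb by 0.90, and the autophagy genes Gabarapl2 and Atg7 fell by 1.60 and 1.42. Over the 9 knockout days, of these lists, Cd36 alone passed the F test (adjusted p = 0.0137), and without KO day 42 replicate 1 it did not (0.0664).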

How the data were processed

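PolyA-selected RNA was sequenced on an Ion Proton from Ion Torrent libraries, per the labels' protocols; TopHat, Bowtie, Cufflinks and the build mm10 are named in the submitters' processing notes, without versions or strand setting. The extraction text speaks of sorted germ cells, the other labels of sorted Sertoli cells. The authors deposited raw counts per gene, and tables named FPKM whose values are CPM (counts divided by the library total, within 0.0005), so the deposited CPM are printed as levels. All value columns were used. In the counts of KO day 42 both columns share a header and were numbered by the CPM column with the same values. RPKM used exon lengths of GENCODE M21 (GRCm38).

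Counts were tested with edgeR 4.0.16 (R 4.3.3): filterByExpr, TMM, quasi-likelihood F tests with SEs derived from them, Benjamini-Hochberg over all genes tested (14331 sorted, 13065 knockout, 15777 joint; biological coefficient of variation 0.268, 0.122 and 0.192). Folds are differences of mean log2 levels. Calls by edgeR are those at these main settings unless an alternative is named. Alternatives were RLE scaling, no filter, the replicate number as a block, DESeq2 1.42.0, Sertoli marker scaling and leaving out each library. The tests were tried on simulated counts. Of the gene symbols 27 had been turned into dates, none of them in a list. The genes and lists were chosen with earlier results of these data known. Named beside the 10 members were up to 2 called genes in each direction per list and comparison by smallest p, or, with none called, the 2 most abundant, and the 5 genes most like Gas6. Ano6 was named after its values were seen. The limit of 3 counts covers counting error only. The main fits did not pair libraries by replicate number. Over genes, replicate 1 minus replicate 2 correlated over 0.1 in 6 of 10 pairs of sorted groups and 1 of 36 pairs of knockout days.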

Additional observations from a re-analysis of the deposited data

How the results depend on the processing

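Of the values of the 10 genes under the alternatives, 2453 stayed on their side of the threshold with no called value turning round, 46 passed it only under the alternative, 19 no longer passed it, and 2 turned round: against the sorted cells with Sertoli marker scaling Axl had log2 -0.16 and Tyro3 -0.25; the cause was not tested. The counts of calls over all genes moved more. Without the filter they were 2764 for the F test over stages, 1932 for group D, 901 for group A, 307 for group B, 988 for group C, 651 for group E, 617 and 1180 for the steps into and out of group D, 968 for the F test over days and 359 for the cycle fit. With DESeq2 they were 2000 for the F test over stages, 527 for group A, 112 for group B, 649 for group C, 294 for group E, 309 and 839 for the steps, 215 for the F test over days, 212 for the line and 57 for the cycle fit. With Sertoli marker scaling, added after seeing the data, group B had 24 and the step into group D 136; calls out of group D were 327 higher and 149 lower (285 and 225 with TMM). Mfge8 then gave an adjusted p of 0.0528 in the F test over stages, and Dock1 0.0482. Without the filter edgeR also called Gas6 in groups B and C, and Mfge8 in group A and the step out of group D. It also called Elmo1 in group A and both steps, Dock1 in the F test over stages and group C, and Itgb5 over days.

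With the replicate block the counts were 477 for group A, 24 for group B, 170 for group E, 178 and 875 for the steps and 65 for the line over days; same-numbered libraries correlated at -0.111 to 0.430 in the sorted set (6 of 10 pairs of groups over 0.1) and -0.269 to 0.128 in the knockout (1 of 36). Under the block Elmo1 also passed in group A and both steps, and Mfge8 in the step out of group D; it changed no other call of the 10 genes.

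Leaving out 1 library, counts ran from 414 to 1557 for the F test over stages, 295 to 1785 for group D, 85 to 304 for group A, 0 to 81 for group B, 161 to 598 for group C, 0 to 319 for group E, 0 to 392 and 38 to 842 for the steps, 24 to 909 for the F test over days, 4 to 204 for the line, 0 to 9 for the cycle fit, 13621 to 13955 for knockout against sorted cells and 9318 to 12004 against group D. With 1 library left in a group, that library is assumed to vary like the others. Depth limits Itgav most, at 33 counts in its lowest library.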

Other observations

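Gas6 and Elmo1 shared 1 order of group means over the stages (B, A, C, E, D). Mfge8 and Tyro3 shared another (D, C, E, B, A), although Tyro3 did not pass the test. Libraries of neighbouring groups in these orders overlapped throughout for Tyro3, and in part for Gas6, Elmo1 and Mfge8, so the orders are not resolved. Axl ran A, B, E, C, D. Dock1, Mertk and Itgav had their lowest group mean in group C. For Mertk and Itgav the libraries of neighbouring groups overlapped, and Itgav averaged 12.77 CPM in group C beside 12.96 CPM in group D.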
